A study of Homo sapiens with 12 samples.

Results

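Ls174 cells, a line derived from a human colon cancer, were cultured for 24 h with or without HME, an extract of the red seaweed Hypnea musciformis, and RNA from 3 libraries of each condition was sequenced. These 6 libraries, taken by the cell line and treatment in the sample labels, are part of the 12 libraries of the series. The labels give both groups the genotype WT, the control group no treatment, and the treated group the extract at the IC50 of the cells, with a dose of 0.7 mg/ml in the treatment protocol, whereas the methods of the study state a slightly higher concentration. They call the agent a microalgal extract in a single field, whereas Hypnea musciformis is a macroalga. Cells of both groups were kept in DMEM with serum, according to the growth protocol. The study describes the replicates as biological triplicates, and a single established line limits the groups as a model of colon epithelium. The comparison asks which functions of these epithelial cells differed after a day with the extract. The libraries came from a 3′ mRNA kit, in which the reads fall next to the poly(A) tail, so that a count reflects the number of transcript ends and not the length of the transcript.

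The lining of the colon renews itself from stem cells at the base of the crypts, which depend on Wnt signals and on a laminin-rich basement membrane. Their progeny become absorptive cells, which move salt and water, and goblet cells, which secrete mucus. Secreted and membrane proteins of all these cells are folded and glycosylated in the endoplasmic reticulum (ER) and Golgi apparatus, and epithelial cells that meet microbes or irritants release chemokines that attract leukocytes. Colon cancer lines keep parts of this programme, and the Ls174 line is known for its mucus-secreting character.

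The 6 libraries held between 1977996 and 3464540 counts each. Of 13 colon epithelial markers, 10 had more than 3 counts in every library, with a summed level of 1708 to 1888 CPM (counts scaled to an equal library total) in the controls and 1956 to 2896 CPM with HME. The sum hides changes in both directions. Of 11 tested markers, 2 were higher and 4 lower with HME at the thresholds given below (log2 fold changes -1.45 to 1.34, median -0.09). KRT20, a keratin of mature colonocytes, had at most 1 count in a library, and GUCY2C at most 7. Of 8 goblet cell markers, 4 had more than 3 counts in every library (340 to 369 CPM summed in the controls and 385 to 425 CPM with HME), whereas ATOH1, the factor that specifies secretory cells, was at 0 in every library and MUC2, the main colonic mucin, had at most 7 counts. Of the 4 tested goblet markers, 1 was higher and 1 lower (log2 fold changes -2.38 to 0.695). Traces of liver transcripts were present in 2 libraries, with 126 CPM summed over 9 liver markers in control 3 and 62.2 CPM in HME 1 against 1.63 to 12.4 CPM in the other 4, which does not follow the groups. Their part in the results was not tested. The summed markers of mesenchymal cells reached at most 6.30 CPM and those of blood cells at most 5.24 CPM, and the 5 endothelial markers present in the files were at 0 in every library.

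Control 1 stood apart from the other 5 libraries. Its Euclidean distance (log2 CPM over all tested genes) was 131.9 to control 2 and 134 to control 3, whereas controls 2 and 3 were 44.27 apart and the HME libraries 47.2 to 56.16 apart. Controls 2 and 3 lay at 62.44 to 71.68 from the HME libraries. Control 1 was also the smallest library, with 1977996 counts. It had counts in 13885 genes, against 16971 to 18324 genes in the other 5 libraries. How far this affects low or absent values of single genes in control 1 was not tested. Results are therefore given with all 6 libraries and, where it matters, without control 1, which was left out only after its values were seen.

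Of 11319 genes tested with edgeR's quasi-likelihood F test, 465 were higher with HME (4.11%) and 888 were lower (7.85%) at the thresholds of the study, which ask for a log2 fold change beyond 0.58 with an unadjusted p under 0.05. In what follows, "rose" and "fell" refer to genes past these thresholds. With p values adjusted by the Benjamini-Hochberg method across the 11319 genes, 36 genes were higher (0.318%) and 98 lower (0.866%) at an adjusted p under 0.05, 134 in all (1.18%), and adjusted p values below are from this fit. Without control 1, 747 genes rose (6.4%) and 1077 fell (9.23%), and after adjustment 357 were higher (3.06%) and 622 lower (5.33%), 979 in all (8.39%). When any HME library was left out, 0 genes passed after adjustment, although between 854 and 1175 genes had an unadjusted p under 0.05. Without control 2 only 2 genes passed, and without control 3 only 10. Each adjusted call of the fit with all 6 libraries therefore rests on all 3 HME libraries, and most also on controls 2 and 3. The median log2 fold change over all tested genes was -0.00287, and in 2702 genes (23.9%) the ranges of both groups did not overlap.

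Across 37 lists of genes grouped by function, targets of the antioxidant factor NRF2 (19 of 32 tested members), chemokines (6 of 11) and targets of the stress factors ATF4 and CHOP (14 of 26) were among the lists with many members that rose. Lists with many members that fell included the basement membrane (17 of 23), ion transporters (12 of 19), ER chaperones (13 of 26), Wnt and crypt genes (11 of 23), cholesterol synthesis (14 of 30) and lysosomes (16 of 37). The median was below 0 in 22 lists and above 0 in 15. Many of the lists with falling members hold membrane or secreted proteins. Of 2943 tested coding genes with a hydrophobic stretch (defined below), 557 fell, which for such lists is a closer background than all tested genes.

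**Figure D1:**
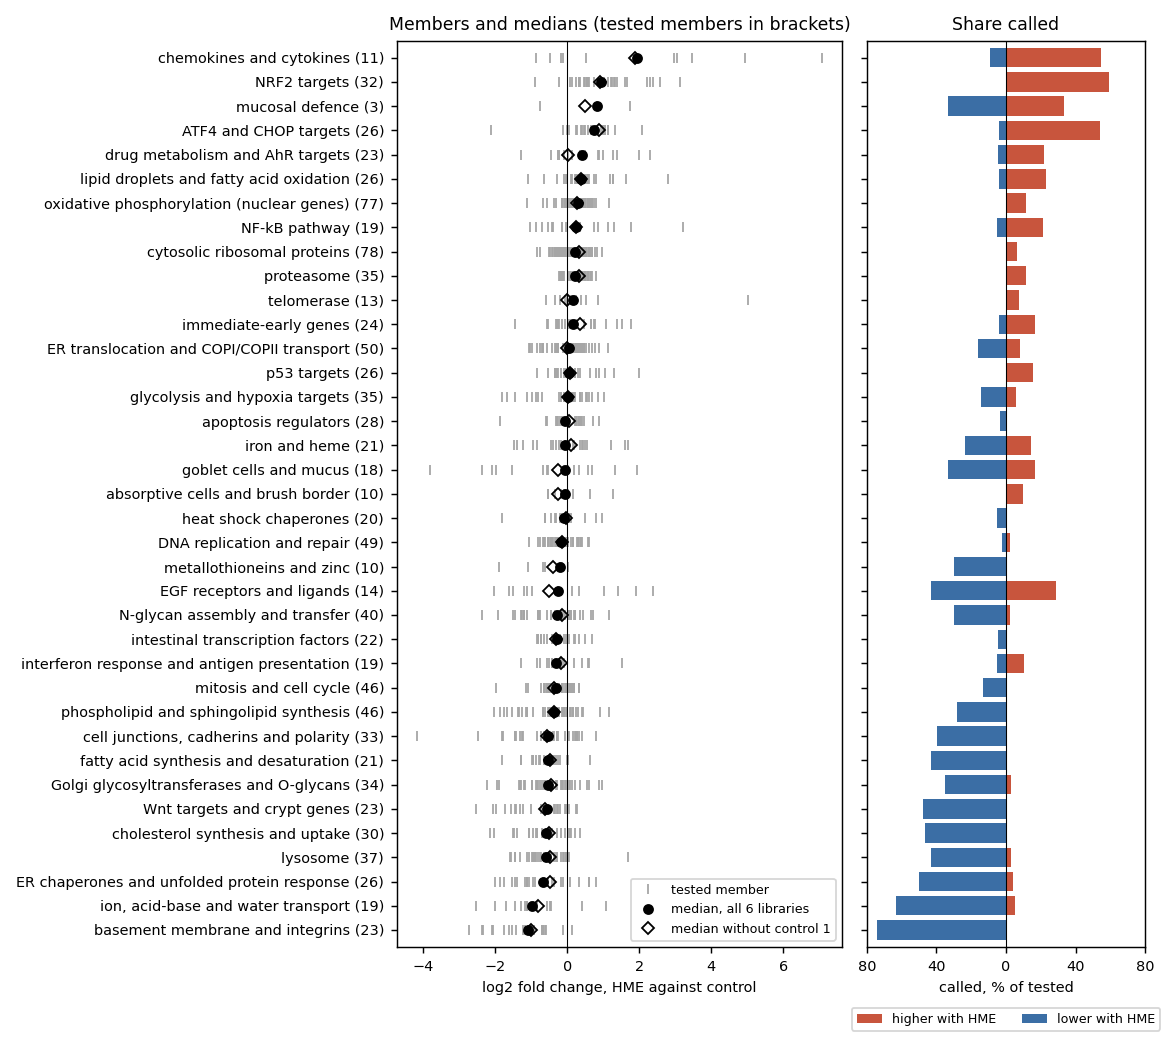
Log2 fold change with HME of every tested member of 37 gene lists (grey ticks), with the list median over all 6 libraries (filled circles) and without control 1 (open diamonds), and the share of members that rose (red bars) or fell (blue bars, to the left) in percent of those tested. The medians run from -1.09 in the basement membrane list to 1.95 in the chemokine list.

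Several chemokines rose, and CCL20 had the largest log2 fold change among the named genes. Of 35 listed chemokines and cytokines, 11 had enough counts to be tested, 6 rose and 1 fell, with a median log2 fold change of 1.95. CCL20, which attracts dendritic cells and lymphocytes through the receptor CCR6, had 0, 0.334 and 1.93 CPM in the controls and 153, 105 and 130 CPM with HME. The lowest HME library was thus far above the highest control, with a fitted log2 fold change of 7.07 ± 0.54 (SE, adjusted p = 0.0064), and 8.99 without control 3. Its counts lie in a region that is mostly 3′ UTR, at chr2:228681800-228682469 (GRCh37). The 8 control counts against 1025 HME counts gave a ratio of 131 (exact 95% interval 66.5 to 305, counting error only). CXCL1, a neutrophil chemokine, had 0, 1.67 and 1.66 CPM in the controls and 35.5, 43.1 and 40.6 CPM with HME, a ratio of summed counts of 29.5 (16.2 to 59.6) and an adjusted p of 0.0127. CXCL2, its close relative, rose from 4.09 ± 1.5 to 35.1 ± 3.96 CPM (SD, n = 3 each, log2 fold change 3.05, adjusted p = 0.0134). CXCL3 rose from 9.53 ± 2.05 to 37.3 ± 1.95 CPM (1.95, adjusted p = 0.0273), and IL8, the product of which is the leading neutrophil chemokine in humans, from 1.70 ± 0.62 to 13.5 ± 5.41 CPM (2.97, adjusted p = 0.0392). In all 5 genes every HME library was above every control. Reads of CXCL1, CXCL2 and CXCL3 could be split between these near-identical genes, and how reads with several alignments were counted is not stated. LTB, a membrane-anchored cytokine of the TNF family, had 4 control counts in all and 45 with HME, a ratio of 11.5 (exact 95% interval 4.21 to 44.2), and did not pass after adjustment (adjusted p = 0.0895). CCL15, a chemokine for monocytes, fell (-0.87).

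These chemokine promoters are shown because a nuclear factor kappa B (NF-kB) site is known to lie close to the start of several of them. RefSeq promoters (GRCh38.p14, 250 bases before to 50 after the start) were matched for 9 of the 11 tested members and searched on both strands for GGG, any 2 bases and TTTCC, written in capitals. It was found in 6 of the 9, among them 5 of the 7 that were called in either direction, and in 1.92% of all 27305 promoters. The sites are printed 5′ to 3′ on the strand of the gene, and their overlap with other motifs was not examined:
CCL20: atcaatggGGAAAACCCCatgtggca
CXCL1: ggaactccGGGAATTTCCctggcccg
CXCL2: ggagctccGGGAATTTCCctggcccg
CXCL3: ggagctccGGGAATTTCCctggcccg
LTB: gggtgtgcGGAAAGTCCCagccaggt

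The CCL20 site lies at chr2:227813755-227813780 with its flanks, at position -74 relative to the start, and the CXCL1 site at chr4:73869306-73869331, also at -74. The sites of CXCL2 and CXCL3 (chr4:74099256-74099281 and chr4:74038751-74038776, both on the minus strand) have the same letters. The LTB site (chr6:31582494-31582519, minus strand), at -82, holds the motif on the opposite strand, as does that of CCL20. The sixth member with the motif was IL32, which did not pass (0.53). A match describes the sequence and does not show that a factor was bound.

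In the NF-kB pathway itself, 4 of 19 tested members rose and 1 fell (median 0.26). IER3, an early response gene that dampens NF-kB signalling, rose from 290 ± 110 to 994 ± 120 CPM (log2 fold change 1.77, adjusted p = 0.0392), although its counted region overlaps a gene on the opposite strand. TNFAIP2 rose from at most 1.34 CPM in a control to between 5.00 and 9.45 CPM with HME (3.22, and 4.12 without control 2). NFKBIA, which encodes the inhibitor that is itself a target of NF-kB, had 11.4, 71.9 and 76.2 CPM in the controls and 143, 124 and 132 CPM with HME (1.3), with control 1 far below the other controls. Without control 1 its log2 fold change was 0.84 (adjusted p = 0.0042). CHUK, which encodes a kinase of the pathway, rose (0.85), and IKBKB, which encodes its partner kinase, fell (-0.71).

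Genes of mucosal defence were mostly too low to test, with 3 of 26 listed members tested. S100P, a calcium-binding protein of mucosal epithelium, had 335, 383 and 376 CPM in the controls and 1272, 1323 and 1099 CPM with HME (log2 fold change 1.75 ± 0.20, adjusted p = 0.0134). PLA2G2A, an antimicrobial phospholipase of Paneth cells, fell (-0.75). Of 19 tested genes of the interferon response and antigen presentation, 2 rose (OAS1, 1.52, and IRF7, 0.60) and 1 fell (TAPBP, -1.27), with a median of -0.31.

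Of 14 tested ligands, receptors and regulators of the EGF family, 4 rose and 6 fell (median -0.26, and -0.50 without control 1), and 2 rose without control 2 or without HME 1. The ligand AREG had 4.90, 11.7 and 17.7 CPM in the controls and 51.2, 38.5 and 43.4 CPM with HME (log2 fold change 1.9, adjusted p = 0.0715). HBEGF, another ligand of the EGF receptor, had 0.544, 4.35 and 3.87 CPM in the controls and 13, 19.6 and 16.4 CPM with HME (2.37), and EREG rose as well (1.02). The fourth gene that rose was ERRFI1, a feedback inhibitor of the receptors (1.41). Among the receptors, EGFR had 17.4, 15.1 and 11.3 CPM in the controls and 3.54, 3.08 and 3.91 CPM with HME (-2.03, adjusted p = 0.0545). ERBB2 fell from 27.5 ± 2.54 to 9.63 ± 2.03 CPM (-1.5, adjusted p = 0.0487), and ERBB3 fell (-0.97). The proteases that release the ligands from the cell surface fell too, ADAM10 from 41.7 ± 7.25 to 13.4 ± 2.48 CPM (-1.62, adjusted p = 0.0348) and ADAM17 by less (-1.10). LRIG1, which restrains the receptors and marks crypt stem cells, fell from 63.8 ± 5.85 to 27.7 ± 2.66 CPM (-1.21, adjusted p = 0.0357). The regions of ERBB2, LRIG1 and ADAM17 overlap genes on the opposite strand, and whether strand was used in counting is not stated.

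Of 24 tested immediate-early genes, 4 rose and 1 fell (median 0.15, and 0.36 without control 1). DUSP4, a phosphatase that ends MAP kinase signals, rose from 29.8 ± 6.97 to 76.6 ± 0.86 CPM (1.37, adjusted p = 0.0348), and DUSP6 (0.67) and EGR1 (0.76) rose along with IER3. MYC was the member that fell (-1.45), with 119 CPM in control 1, 37.8 and 31.8 CPM in the other controls, and 30.7, 14.2 and 23.1 CPM with HME. Without control 1 its log2 fold change was -0.61.

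**Figure D2:**
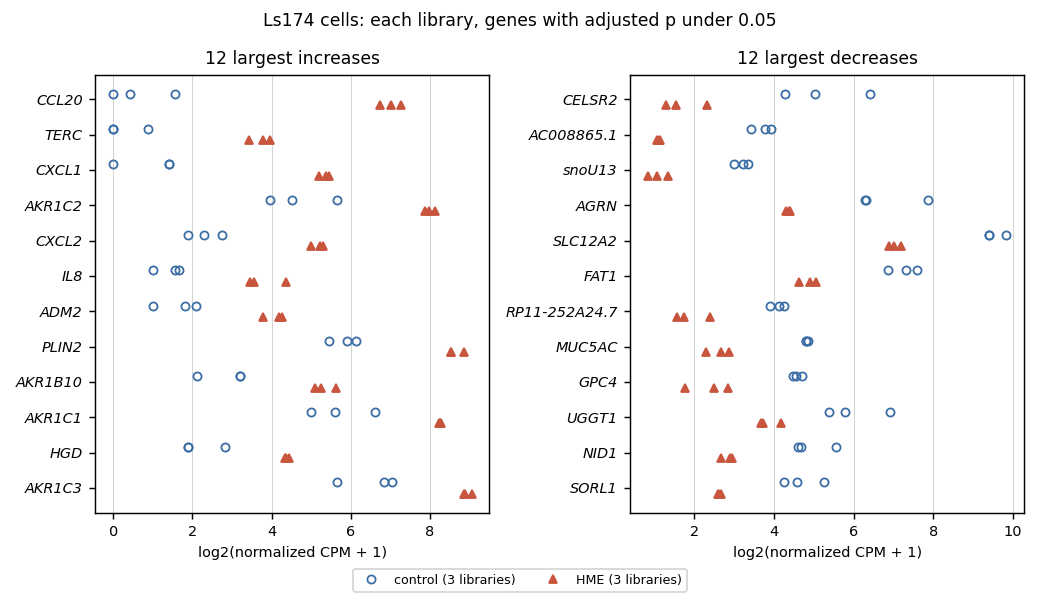
Log2(normalized CPM + 1) in each library of the 12 genes with the largest increases (left) and the 12 with the largest decreases (right) among those with an adjusted p under 0.05 and groups that do not overlap, controls as open circles and HME as triangles. CCL20 at the top left lies at 105 to 153 CPM with HME and at most 1.93 CPM without it.

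NRF2 is a transcription factor that is held back by KEAP1 until electrophiles or oxidants release it, after which it turns on genes for glutathione, NADPH and the detoxification of carbonyls. Of 32 tested targets, 19 rose and 0 fell at the thresholds of the study, with a median log2 fold change of 0.95. After adjustment 8 were higher and 0 lower, and without control 1 these numbers were 18 and 0. The aldo-keto reductases, which reduce aldehydes, ketones and steroids, rose most. AKR1C2 had 14.7, 22.1 and 49.7 CPM in the controls and 235, 280 and 253 CPM with HME (3.12 ± 0.41, adjusted p = 0.0255, and 3.78 without control 3). AKR1B10 rose from 6.59 ± 2.82 to 39.4 ± 7.76 CPM (2.58, adjusted p = 0.0302), AKR1C1 from 58.3 ± 34 to 307 ± 5.51 CPM (2.38, adjusted p = 0.0348, and 2.98 without control 3) and AKR1C3 from 98.2 ± 43.1 to 488 ± 36.8 CPM (2.30, adjusted p = 0.0307). The 3 AKR1C genes are near-identical neighbours on chromosome 10, so that their reads could be split among them. In each the lowest HME library was above the highest control, as the rule for the largest changes asks. This does not show how the reads were split.

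The other NRF2 targets that passed after adjustment have different roles. SRXN1, which restores oxidized peroxiredoxins, rose from 112 ± 6.98 to 280 ± 36.6 CPM (1.33, adjusted p = 0.0302), and all of its reads are also counted for an overlapping transcript. PIR, an iron-containing nuclear protein, rose from 23.9 ± 8.08 to 76.3 ± 14.6 CPM (1.65, adjusted p = 0.0392). FTL, the light chain of the iron store ferritin, rose from 1616 ± 235 to 3743 ± 541 CPM (1.21, adjusted p = 0.0487). Among members past the thresholds of the study only, NQO1, a quinone reductase, had 607, 451 and 438 CPM in the controls and 1082, 903 and 858 CPM with HME (0.93, adjusted p = 0.103). GCLM, a subunit of the enzyme that limits glutathione synthesis, had 40.8, 33.1 and 47.5 CPM against 81.5, 87.3 and 79.3 CPM (1.03), and ME1 and TALDO1, which serve NADPH and pentose metabolism, rose by 1.25 and 0.75. HMOX1, which degrades heme, stayed low, at 2.71 ± 1.89 CPM in the controls and 8.84 ± 2.84 CPM with HME (1.6). The motif TGACNNNGC, the core of the antioxidant response element, was present in 8 of 24 matched promoters of the list and in 13.5% of all promoters. Among the 14 matched members that were called, 5 held it.

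Genes of drug metabolism overlapped with these in kind. Of 23 tested members, 5 rose and 1 fell (median 0.41, and 0.01 without control 1). ALDH3A1, an aldehyde dehydrogenase induced by aromatic compounds, rose from 14.6 ± 3.72 to 59.4 ± 5.11 CPM (2, adjusted p = 0.0249). CYP1A1, the classical target of the aryl hydrocarbon receptor, had 0, 7.02 and 11.6 CPM in the controls and 28, 45 and 27.4 CPM with HME (2.31, adjusted p = 0.21, and 3.07 without control 3), and TIPARP, another target, rose by 1.28. ABCC1, an export pump, fell (-1.27), whereas ABCC3 rose (1.40). UGT1A1 did not pass (-0.25), and its last exons are shared with the other UGT1A genes.

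Many ATF4 and CHOP targets rose, whereas many ER chaperones fell, and the activity of the pathways that control them was not tested. The unfolded protein response raises ER chaperones through ATF6 and XBP1, while the kinase PERK and related kinases raise ATF4, which drives amino acid synthesis and, with CHOP, stress genes. Of 26 tested ATF4 and CHOP targets, 14 rose and 1 fell (median 0.74). DDIT4, an inhibitor of mTORC1, had 8.16, 18.7 and 19.9 CPM in the controls and 75.6, 68.5 and 56.6 CPM with HME (2.06 ± 0.33, adjusted p = 0.0344). WARS, the tryptophanyl-tRNA synthetase, rose from 103 ± 5.59 to 207 ± 18.3 CPM (1.00, adjusted p = 0.042). TRIB3, a pseudokinase induced by CHOP, had 159, 95.3 and 95.2 CPM in the controls and 242, 277 and 239 CPM with HME (1.12), and ASNS, the asparagine synthetase, had 178, 93.3 and 77.3 CPM against 279, 294 and 302 CPM (1.34). ATF4 itself had 754, 468 and 460 CPM in the controls and 779, 1369 and 1202 CPM with HME (0.99). In these 3 genes control 1 was the highest control, and without it their log2 fold changes were 1.41, 1.78 and 1.27, all with an adjusted p under 0.05. DDIT3, which encodes CHOP, had 34.3 CPM in control 1, 6.35 and 4.69 CPM in controls 2 and 3, and 21.7, 17.3 and 17.4 CPM with HME. With all libraries it did not pass (0.39 ± 0.67), and without control 1 its log2 fold change was 1.77 (adjusted p = 0.0019). The member that fell was SLC7A5, a subunit of an amino acid exchanger, with 1294, 376 and 407 CPM in the controls and 204, 137 and 140 CPM with HME (-2.10, and -1.28 without control 1). Without control 1, 15 members were higher and 1 lower after adjustment.

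Of 26 tested ER chaperones and unfolded protein response genes, 13 fell and 1 rose, with a median of -0.66, and 5 were lower after adjustment. HSPA5, the Hsp70 of the ER and the master chaperone of this response, had 831, 993 and 927 CPM in the controls and 310, 370 and 374 CPM with HME (-1.39 ± 0.20, adjusted p = 0.0302). Its counts lie in a region that is mostly 3′ UTR, at chr9:127996935-127998870 (GRCh37). HSP90B1, the Hsp90 of the ER, had 424, 329 and 327 CPM in the controls and 90.6, 73.8 and 103 CPM with HME (-2.01 ± 0.22, adjusted p = 0.0134). HYOU1, a large ER chaperone, fell from 122 ± 44.7 to 33.2 ± 4.49 CPM (-1.87, adjusted p = 0.0331). The lectin chaperones CANX and CALR, which hold glycoproteins until they are folded, fell from 403 ± 37.7 to 178 ± 15.1 CPM (-1.18) and from 290 ± 12.8 to 134 ± 8.24 CPM (-1.11), both with an adjusted p of 0.0344. In these 5 genes every HME library was below every control. PDIA4, a disulfide isomerase, had 138, 67.5 and 61 CPM in the controls and 41, 24.6 and 26 CPM with HME (-1.53), and SEL1L, part of the pathway that removes misfolded proteins, fell (-1.74, and -1.15 without control 1). HERPUD1, which acts in the same removal pathway, was the member that rose (0.79, adjusted p = 0.217). Without control 1, 11 members were lower and 1 higher after adjustment. The region of CALR overlaps a gene on the opposite strand.

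The ER stress response element is the site through which ATF6 and NF-Y raise these chaperones. The letters CCAAT, any 9 bases and CCACG, in capitals, were found in 6 of 24 matched promoters of the list, among them 4 of the 13 that were called, and in 0.0806% of all promoters (22 of 27305). The following 3 members fell:
HSPA5: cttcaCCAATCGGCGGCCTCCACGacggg
HSP90B1: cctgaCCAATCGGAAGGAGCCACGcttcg
PDIA6: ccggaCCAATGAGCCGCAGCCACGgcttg

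They lie at chr9:125241386-125241414 (minus strand), chr12:103930211-103930239 and chr2:10812848-10812876 (minus strand) in GRCh38.p14, at positions -57, -185 and -77 relative to the start. HSP90B1 holds a second copy on the opposite strand at -80, and PDIA6, a disulfide isomerase, fell (-0.95). CRELD2, with the motif on the opposite strand at -71, did not pass (-0.12). The CHOP-ATF4 element TGATGNAA was found in 2 of 22 matched promoters of the ATF4 list and in 3.75% of all promoters. It was present in 0 of the 13 matched members that were called.

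Of 40 tested genes of N-glycan assembly and transfer, 12 fell and 1 rose (GMPPA, 1.17), with a median of -0.27. UGGT1, which senses the fold of a glycoprotein and sends it back to calnexin, had 119, 40.5 and 54.4 CPM in the controls and 12.2, 16.9 and 11.7 CPM with HME (-2.37, adjusted p = 0.04). GANAB, the catalytic subunit of glucosidase II, fell from 211 ± 76.7 to 56 ± 10.9 CPM (-1.91, adjusted p = 0.0337), and PRKCSH, its other subunit, fell as well (-1.5). STT3B, a catalytic subunit of oligosaccharyltransferase, fell from 145 ± 32.6 to 60.4 ± 2.27 CPM (-1.26, adjusted p = 0.0388). STT3A (-1.29), RPN1 (-1.13) and RPN2 (-1.44) of the same complex fell too, whereas DDOST did not pass (-0.25). Of 34 tested Golgi glycosyltransferases and O-glycan genes, 12 fell and 1 rose (ST6GALNAC4, 0.89), with a median of -0.54. GALNT7 and GALNT1, which start mucin-type O-glycans, fell from 27.7 ± 2.49 to 7.20 ± 0.74 CPM (-1.94, adjusted p = 0.0302) and from 76.3 ± 6.89 to 33.9 ± 6.42 CPM (-1.17, adjusted p = 0.0457). Nearly all counts of GALNT7 lie in a region that overlaps a gene on the opposite strand. MAN2A1, a Golgi mannosidase, fell from 64.3 ± 14.8 to 17.2 ± 4.04 CPM (-1.9, adjusted p = 0.0302).

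Genes of ER translocation and vesicle coats did not share a direction. Of 50 tested members 8 fell and 4 rose, with a median of 0.06. SPCS3, a subunit of signal peptidase, fell from 212 ± 32.5 to 102 ± 4.36 CPM (-1.05, adjusted p = 0.0457), and LMAN1, a cargo receptor, fell (-1.03), whereas COPE of the COPI coat (1.13) and SEC23B of the COPII coat (0.87) rose. SEC61A1, the core of the translocon, did not pass (-0.31).

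Of 37 tested lysosomal genes, 16 fell and 1 rose, with a median of -0.58, and 10 fell without HME 2. LAMP1, the most abundant protein of the lysosomal membrane, had 650, 575 and 490 CPM in the controls and 221, 171 and 186 CPM with HME (-1.57 ± 0.21, adjusted p = 0.0255). TPP1, a peptidase, fell from 90.6 ± 13.1 to 30.2 ± 1.16 CPM (-1.58, adjusted p = 0.0249). CTSD, a main lysosomal protease, did not pass (-0.03). SQSTM1, which carries cargo into autophagy and is also a target of NRF2, was the member that rose, with 141, 207 and 206 CPM in the controls and 605, 613 and 570 CPM with HME (1.69, adjusted p = 0.0249), although 96.2% of its counts lie in regions that overlap a gene on the opposite strand.

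Of 21 tested iron and heme genes 3 rose and 5 fell (median -0.06, and 0.11 without control 1), and 1 rose and 3 fell without HME 2 (1 rose also without HME 1). Beside the rise of FTL, TFRC, the receptor that imports transferrin, fell from 502 ± 65.8 to 180 ± 15.2 CPM (-1.48, adjusted p = 0.0255). ALAS1, the first enzyme of heme synthesis, had 2.72 CPM in control 1, 33.8 and 30.6 CPM in the other controls, and 70.5, 75.4 and 77.2 CPM with HME (1.68). FTH1, the heavy chain of ferritin, did not pass (0.56). Of 10 tested metallothionein and zinc genes 3 fell and 0 rose (median -0.19), among them MT1X (-1.09), and MT2A did not pass (-0.14). Metallothionein genes are near-identical, so that their reads may be split.

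The basement membrane list had the lowest median of the 37 lists (-1.09), with 17 of 23 tested members falling and 0 rising. AGRN, a heparan sulfate proteoglycan of basement membranes, had 232, 78.6 and 77 CPM in the controls and 20.1, 19.6 and 18.9 CPM with HME (-2.71 ± 0.45, adjusted p = 0.0354). The same reads are counted for an overlapping transcript. Control 1 was the highest, and without it the log2 fold change was -1.99 (adjusted p = 7.9e-06). HSPG2, the basement membrane proteoglycan perlecan, fell from 31.9 ± 5.94 to 7.45 ± 1.9 CPM (-2.09, adjusted p = 0.0307), NID1, which links laminin to collagen, from 31.4 ± 12.9 to 6.16 ± 0.69 CPM (-2.32, adjusted p = 0.0344), and GPC4, a cell surface glypican, from 22.9 ± 2 to 4.38 ± 1.91 CPM (-2.38, adjusted p = 0.0348). Among the integrins, the receptors for this matrix, ITGAV had 42.4, 30.4 and 21 CPM in the controls and 5.12, 6.15 and 10.7 CPM with HME (-2.07, adjusted p = 0.0526), and ITGA6 (-1.42), ITGA2 (-1.75) and ITGB4 (-0.70) fell. LAMA5, a laminin chain of the epithelial basement membrane, had 60.9, 47.1 and 40.6 CPM in the controls and 22.4, 21.1 and 22.1 CPM with HME (-1.17), in a region that overlaps a gene on the opposite strand. Without control 1, 15 members were lower and 0 higher after adjustment.

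Of 33 tested genes of cell junctions, cadherins and polarity, 13 fell and 0 rose (median -0.52), and 8 fell without HME 3. CELSR2, a large cadherin of planar polarity, had the largest decrease of all genes named by the rule, with 83.8, 31.8 and 18.5 CPM in the controls and 3.94, 1.92 and 1.42 CPM with HME (-4.17 ± 0.67, adjusted p = 0.0348, and -3.36 without control 1). FAT1, another giant cadherin, had 116, 192 and 158 CPM in the controls and 28.8, 23.9 and 32 CPM with HME (-2.46 ± 0.25, adjusted p = 0.0127). OCLN, the tight junction protein occludin, fell from 33.8 ± 4.36 to 9.72 ± 1.15 CPM (-1.79, adjusted p = 0.0302), and DSC2, a cadherin of desmosomes, from 95.1 ± 8.59 to 38.5 ± 9.09 CPM (-1.3, adjusted p = 0.0392). The tight junction claudins CLDN1 (-1.44) and CLDN2 (-1.81) fell. CDH1, the cadherin of adherens junctions, had 15.8, 19.4 and 17.7 CPM in the controls and 18.5, 12.7 and 12.4 CPM with HME, which overlap (-0.28 ± 0.29).

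Of 23 tested Wnt targets and crypt genes 11 fell and 0 rose, with a median of -0.55, and 6 were lower after adjustment. EPHB3, a receptor that positions cells along the crypt, had 1544, 1401 and 1492 CPM in the controls and 545, 459 and 513 CPM with HME (-1.55 ± 0.19, adjusted p = 0.0247), so that the groups were far apart compared with the spread within each. EPHB2, its relative, fell from 126 ± 61.9 to 30.1 ± 8.36 CPM (-2.06, adjusted p = 0.0417). OLFM4 and SMOC2, which mark crypt stem cells, fell from 54.7 ± 5.85 to 20.3 ± 1.64 CPM (-1.43, adjusted p = 0.031) and from 242 ± 29.8 to 102 ± 11.2 CPM (-1.24, adjusted p = 0.0344). Most counts of SMOC2 lie in a region that overlaps another entry on the same strand. ZNRF3, a ligase that removes Wnt receptors and is itself a Wnt target, fell from 112 ± 31.5 to 34.1 ± 11.1 CPM (-1.71, adjusted p = 0.042). LGR5, the marker of the crypt base stem cell, had 10.9, 35.1 and 39.2 CPM in the controls and 9.06, 6.54 and 6.41 CPM with HME (-1.97, adjusted p = 0.109). Without control 1, the lowest control, its log2 fold change was -2.34 (adjusted p = 2.8e-05). AXIN2, the most general Wnt target, did not pass (-0.35). Of 22 tested intestinal transcription factors 1 fell (CDX1, -0.73) and 0 rose, with a median of -0.29. CDX2, which directs intestinal identity, had 35.4, 94.0 and 106 CPM in the controls and 60.7, 38.5 and 44.1 CPM with HME (-0.73, adjusted p = 0.451), and without control 1 its log2 fold change was -1.07 (adjusted p = 0.0018).

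Of 19 tested transporters of salt and water, the basis of absorption and secretion, 12 fell and 1 rose (median -0.98). SLC12A2, the cotransporter that loads chloride for secretion and is also counted among crypt genes, had 917, 679 and 682 CPM in the controls and 119, 128 and 144 CPM with HME (-2.54 ± 0.22, adjusted p = 0.00716). SLC5A3, which imports myo-inositol, fell from 22.3 ± 5.96 to 5.52 ± 0.48 CPM (-2, adjusted p = 0.0363), and SCNN1A, a subunit of the epithelial sodium channel, from 119 ± 50.3 to 36.7 ± 1.43 CPM (-1.69, adjusted p = 0.0392). The region of SLC5A3 overlaps another entry of the same name. ATP1B1, a subunit of the sodium pump, fell by less (-0.83). AQP3, a water and glycerol channel, was the member that rose (1.08, adjusted p = 0.26).

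**Figure D3:**
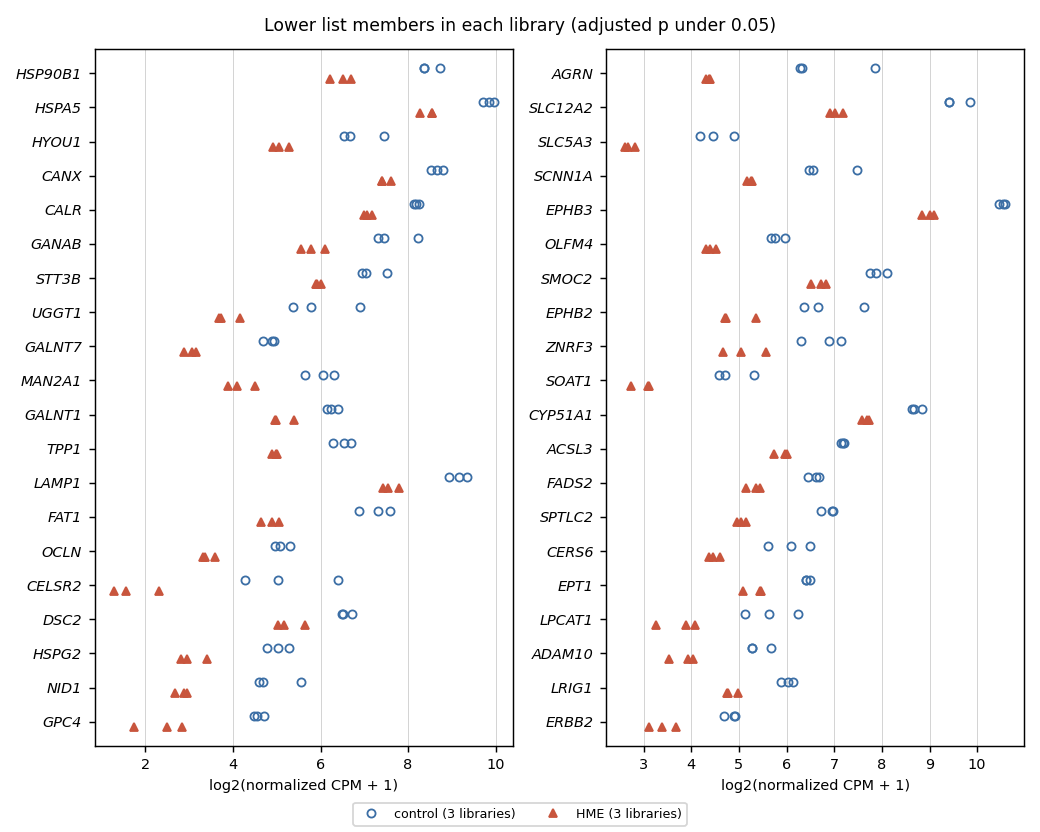
Log2(normalized CPM + 1) in each library of 40 list members that were lower with HME at an adjusted p under 0.05, from ER folding and glycosylation, lysosomes, junctions and basement membrane (left) to transport, crypt, lipid and EGF genes (right). Every HME library (triangles) lies below every control (open circles), and the controls of CELSR2, AGRN and UGGT1 are spread widely, with control 1 the highest.

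The goblet cell list moved both ways. Of 18 tested members 3 rose and 6 fell (median -0.06, and -0.25 without control 1). MUC5AC, a gel-forming mucin of the stomach that colon cancers often express, had 27.7, 26.8 and 26.8 CPM in the controls and 6.30, 5.38 and 3.91 CPM with HME (-2.38 ± 0.31, adjusted p = 0.0249). MUC6, another gastric gel-forming mucin, had 153, 36.1 and 25.7 CPM in the controls and 3.54, 3.08 and 8.18 CPM with HME (-3.81, and -2.61 without control 1). MUC13, a membrane mucin, had 77.2, 25.8 and 23.7 CPM against 13.4, 7.31 and 8.54 CPM (-2.09, and -1.34 without control 1). In contrast, SPINK4, a small peptide secreted by goblet cells, rose from 13.6 ± 4.03 to 51.7 ± 16.7 CPM (1.95, adjusted p = 0.0392), and the trefoil peptides TFF1 and TFF2, which protect the mucosa, rose by 0.69 and 1.33, the latter 2.10 without control 2. TFF1 had 91.4, 88.3 and 89.2 CPM in the controls and 160, 149 and 126 CPM with HME. TFF3, the trefoil peptide of the colon, had 88.1, 76.2 and 76.2 CPM in the controls and 111, 92.7 and 98.6 CPM with HME, and did not pass (0.33 ± 0.19). Of 36 absorptive cell genes 10 were tested, 1 rose (BAIAP2L1, 0.65) and 0 fell, with a median of -0.07, and VIL1 of the brush border did not pass (-0.09).

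Cells make cholesterol and fatty acids through enzymes that are raised together by the factors SREBP1 and SREBP2 when membrane cholesterol is low. Of 30 tested genes of cholesterol synthesis and uptake, 14 fell and 0 rose (median -0.57), and 9 fell without HME 2 or HME 3. CYP51A1, which demethylates lanosterol, fell from 420 ± 34.6 to 203 ± 10.2 CPM (-1.05, adjusted p = 0.0392), with nearly all of its counts shared with an overlapping gene. SOAT1, which esterifies cholesterol for storage, fell from 28.9 ± 8.51 to 6.96 ± 1.10 CPM (-2.04, adjusted p = 0.0348). SQLE, the squalene epoxidase, had 184, 58.5 and 61.8 CPM in the controls and 16.9, 25 and 25.6 CPM with HME (-2.15, and -1.41 without control 1). The sterol regulatory element TCACNCCAC was found in 1 of 23 matched promoters of the list and in 1.17% of all promoters. Among the 9 matched members that were called, 1 held it.

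Of 21 tested genes of fatty acid synthesis and desaturation, 9 fell and 0 rose (median -0.53). ACSL3, which activates fatty acids, fell from 144 ± 3.06 to 59.1 ± 5.95 CPM (-1.28, adjusted p = 0.0302), and FADS2, a desaturase, from 95.1 ± 7.73 to 39 ± 4.35 CPM (-1.28, adjusted p = 0.0331). SCD (-0.96), FASN (-0.65) and SREBF1 (-0.96), the gene of SREBP1, fell too. The region of SCD overlaps another entry on the same strand. Of 46 tested genes of phospholipid and sphingolipid synthesis, 13 fell and 0 rose (median -0.35). SPTLC2, a subunit of the enzyme that starts sphingolipid synthesis, fell from 118 ± 11.2 to 32.1 ± 2.27 CPM (-1.87 ± 0.19, adjusted p = 0.0127), CERS6, a ceramide synthase, from 68 ± 20.6 to 21.2 ± 1.78 CPM (-1.67, adjusted p = 0.0348), and LPCAT1, which remodels phosphatidylcholine, from 52.6 ± 20.8 to 12.7 ± 3.74 CPM (-2.04, adjusted p = 0.0417). EPT1, which makes phosphatidylethanolamine, fell from 85.7 ± 3.23 to 39.6 ± 5.62 CPM (-1.11, adjusted p = 0.0392), and PCYT1A did not pass (-0.33).

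In the list of lipid droplets and fatty acid oxidation, 6 of 26 tested members rose and 1 fell (PPARD, -1.08), with a median of 0.38. PLIN2, which coats lipid droplets, had 42.4, 58.5 and 69.3 CPM in the controls and 465, 367 and 368 CPM with HME (2.81 ± 0.25, adjusted p = 0.00716). CPT1A, which admits fatty acids to mitochondria, had 103, 198 and 184 CPM against 300, 372 and 441 CPM (1.20, adjusted p = 0.105), and HADHA (0.74) and ETFDH (1.28) of fatty acid oxidation rose. Of 35 tested genes of glycolysis and hypoxia 2 rose and 5 fell (median 0.01), and 3 fell without HME 1 or HME 2. VEGFA, the angiogenic factor, had 47.9, 84.9 and 78.1 CPM in the controls and 149, 125 and 153 CPM with HME (1.01), whereas CA9, the carbonic anhydrase known as a hypoxia marker, fell (-1.43).

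Of 77 tested nuclear genes of oxidative phosphorylation, 9 rose and 0 fell, with a median of 0.30, and 61 had a log2 fold change above 0. The number that rose was 1 without HME 2, 3 without HME 3, 5 without control 1 and 4 with scaling by library size alone. The member with the largest change was NDUFA4, a subunit of the respiratory chain, with 356, 456 and 612 CPM in the controls and 529, 1065 and 1607 CPM with HME, which overlap (1.17). Of 78 cytosolic ribosomal protein genes 5 rose and 0 fell (median 0.23, 54 above 0), and of 35 proteasome genes 4 rose and 0 fell (median 0.22, 27 above 0), none of them past an adjusted p of 0.05. Without HME 2 or HME 3 these numbers were 3 and 2, and without control 3 they were 9 and 8 (9 ribosomal genes also without control 2). RPL17 had 573, 732 and 624 CPM in the controls and 868, 1253 and 1621 CPM with HME (0.96), and ribosomal protein genes have many processed copies that can share reads. The deposited tables hold 0 mitochondrial regions, so that genes encoded by the mitochondrion itself were not analysed here.

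Of 49 tested genes of DNA replication and repair 1 rose (RFC2, 0.60) and 1 fell (PRKDC, -1.06, and -0.41 without control 1), with a median of -0.17, 7 fell without control 3, and PCNA (-0.49) and MCM2 (-0.17) did not pass. Of 46 genes of mitosis and the cell cycle 6 fell and 0 rose (median -0.32). Without control 1, 9 fell and 8 were lower after adjustment, whereas 1 fell without HME 2 and 2 without HME 3. Those that fell included CENPE, a kinesin of the kinetochore, with 4.90, 5.68 and 13 CPM in the controls and 0.394, 1.92 and 3.56 CPM with HME (-1.99, -1.40 without control 3 and -2.72 without HME 3), PLK1 (-0.64) and CDC20 (-0.64). MKI67, a marker of cycling cells, did not pass (-0.46), and neither did CCNB1 (0.05). Of 26 tested p53 targets 4 rose and 0 fell (median 0.05), and 2 rose without HME 2. GDF15, a secreted stress signal that ATF4 also drives, had 775, 443 and 380 CPM in the controls and 2296, 1758 and 2357 CPM with HME (2.01 ± 0.31, adjusted p = 0.0337). CDKN1A, the cell cycle inhibitor p21, had 28.8, 63.2 and 62.7 CPM in the controls and 94.2, 94.2 and 82.9 CPM with HME (0.80), and 0.52 without control 1. MDM2 did not pass (-0.27). Of 28 tested apoptosis regulators 1 fell (BIK, -1.85, and -2.63 without HME 2) and 0 rose (median -0.06, and 0.06 without control 1), and MCL1 (0.24) and BCL2L1 (-0.23) did not pass. Of 20 heat shock chaperone genes 1 fell (HSPB1, -1.82, and -1.04 without control 1) and 0 rose (median -0.09), and DNAJB1 did not pass (0.05).

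TERC, the RNA template of telomerase, was the only called member of the telomerase list (1 of 13 tested higher, median 0.17, and -0.01 without control 1). It had 0, 0 and 3 counts in the controls and 25, 38 and 36 counts with HME, a ratio of 33.9 (exact 95% interval 11.3 to 167, counting error only), with an adjusted p of 0.0344. All 3 control counts came from control 3. The mature RNA carries no poly(A) tail, and the counted region, chr3:169482111-169482397 on the minus strand (GRCh37), lies mostly past the annotated end of the gene.

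The remaining genes with the largest changes had varied roles. ADM2, a peptide hormone induced by ATF4, rose from 2.25 ± 1.15 to 16.1 ± 2.86 CPM (2.86, adjusted p = 0.0363), and HGD, an enzyme of tyrosine breakdown, from 3.82 ± 1.95 to 19.9 ± 0.72 CPM (2.31, adjusted p = 0.0392). SORL1, a sorting receptor of the endosome, fell from 26 ± 9.83 to 5.15 ± 0.17 CPM (-2.31, adjusted p = 0.0344). AC008865.1, whose reads are all also counted for LNPEP, had 99 control counts and 9 with HME, a ratio of 10.7 (exact 95% interval 5.43 to 24.1). The noncoding entries snoU13 (-2.80) and RP11-252A24.7 (-2.46) were lower as well, at 8.18 ± 1.12 against 1.13 ± 0.38 CPM and 16.1 ± 2.09 against 2.85 ± 1.24 CPM.

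The genes that fell differed from the others in a property of their proteins and in the length of their transcripts. A hydrophobic stretch, as found in signal peptides and membrane-spanning segments, was scored where the mean Kyte-Doolittle hydropathy over 19 residues of the translated coding sequence reached 1.6, a measure chosen after the calls had been seen. It was present in 557 of 805 coding genes that fell (69.2%), in 93 of 382 that rose (24.4%) and in 2943 of all 9799 tested coding genes (30.03%). Among the genes lower after adjustment it was present in 84 of 92 (91.3%), and among those higher in 9 of 34 (26.5%). The proteins of genes that fell were also longer (median 592 residues, against 452 over all tested genes and 328.5 for genes that rose), but the difference in share was present within each of 3 classes of protein length. In the shortest class 11.6% of genes with a stretch fell against 2.24% without it, in the middle class 18.5% against 3.8%, and in the longest class 24.9% against 4.97%. The values of single libraries showed the same. For each gene, log2 CPM in a library was set against the mean of the controls. The median of these differences was taken in genes with a stretch and in the other genes. The first median less the second was -0.25, -0.27 and -0.27 in the 3 HME libraries. It was 0.00, -0.00 and -0.03 when each control was set against the other controls. Without control 1, 440 of 570 coding genes lower after adjustment had a stretch (77.2%). Transcripts of the genes that fell were longer too (median 4231 nt, against 2997 nt over all tested genes and 1909 nt for genes that rose). The classes above are of protein length, and the part of transcript length was not tested.

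**Figure D4:**
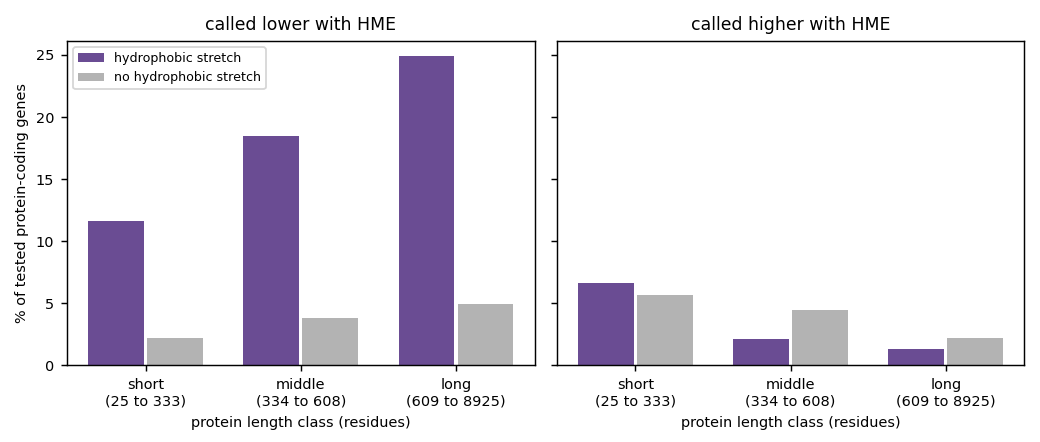
Share of tested protein-coding genes that fell (left) or rose (right) with HME, in percent, by protein length class and by whether the protein holds a hydrophobic stretch (purple) or not (grey). In all 3 length classes the share that fell is higher with a stretch, up to 24.9% against 4.97% in the longest class.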

How the data were processed

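The deposited files hold whole-number counts of reads per 3′ region, without normalization. The authors prepared the libraries with the QuantSeq 3′ kit, sequenced them on an Ion Proton, aligned the reads to hg19 (GRCh37) with Hisat2 and counted them with metaseqR2. The submitters' processing notes also name Bowtie2 and Trimmomatic. Versions, strand and the handling of multiple alignments are not given in the sources used here, so antisense and paralogous genes are uncertain. Of 144910 regions (median 197 nt), all regions of a gene were summed (57736 genes, 22568 with a count in Ls174 cells). The floor of 3 counts was at most 1.63 CPM. Counts of replicates differed beyond sampling noise in every pair (chi-square).

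Counts were fitted with edgeR 4.0.16 in R 4.3.3 (TMM, filterByExpr by group, quasi-likelihood F test, two-sided, no covariate, 3 against 3 libraries), and the SE was derived from the F statistic. DESeq2 1.42.0, other scalings and filters, a replicate block and leaving out each library were alternatives. The code was tested on simulated data. Whether replicate numbers in the labels pair the samples could not be decided (see the closing part). Intervals of ratios are exact binomial ones. CPM are TMM-normalized.

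The 37 functional and 6 marker lists were written from general knowledge, and they and the members were chosen with earlier results of these data known. Named genes are the 12 largest changes in each direction with an adjusted p under 0.05 and groups that do not overlap, and, per list, members with an adjusted p under 0.05, up to 4 further members by p, and the first 2 listed. Other named genes (HMOX1, EREG, HERPUD1, AQP3, TFF2, GMPPA, PPARD, HSPB1, BIK, IKBKB and further single members, and those of the closing part) were chosen after their values were seen, as were the hydropathy measure and the promoter motifs. Transcripts and proteins are of GENCODE in GRCh37. HepG2 libraries, the proteome and quantitative PCR were not analysed here. A few members that the rule names are not reported here.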

Additional observations from a re-analysis of the deposited data

How the results depend on the processing

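Depth limits these results: with 3 libraries a group, genes under about 10 counts a library were mostly not tested, and values of single members near 0 are uncertain. At the thresholds of the study, testing every gene with at least 1 count gave 928 genes higher and 1428 lower, and a log2 fold limit of 1 gave 202 and 519. At an adjusted p under 0.05, DESeq2 gave 143 higher and 291 lower, including all 134 edgeR genes, and testing every gene gave 186 and 418. Scaling by library size alone changed the split, with 24.9% of the genes at the study thresholds higher (337 against 1018 lower). Leaving out 1 library gave 286 to 747 genes higher and 552 to 1077 lower at the study thresholds, and 0 to 357 higher and 0 to 622 lower after adjustment, with the largest numbers without control 1 and 0 without any HME library (1 and 1 without control 2, 5 and 5 without control 3). Deviations of libraries with the same replicate number had correlations of -0.03, -0.01 and -0.05, and those with different numbers from -0.0989 to 0.0902. With 3 libraries a group, this cannot decide whether the numbers pair the samples. With the replicate number as a block, 441 genes were higher and 692 lower at the study thresholds and 0 and 0 after adjustment (1192 at an unadjusted p under 0.05). Of 98 named genes with an adjusted p under 0.05, all 98 kept their direction under every alternative run on them. Groups that lie apart tend to keep their direction when 1 library is dropped, so this adds little. With the replicate block, or without any 1 HME library, 0 of the 98 stayed under an adjusted p of 0.05. Medians of 8 of the 37 functional lists changed sign under at least 1 alternative. With at least 10 counts in every library, which removed the genes that are near 0 in the controls, chemokines and cytokines gave -0.11 and the NF-kB pathway -0.114, and iron and heme ranged from -0.18 to 0.109 when 1 library was left out. Lists with medians near 0 did so too, absorptive cells (-0.254 to 0.15 when 1 library was left out, 0.0356 with every gene tested), glycolysis and hypoxia (down to -0.00169, and -0.0325 with library size only), p53 targets (down to -0.0238, and -0.00355 with at least 10 counts), apoptosis regulators (up to 0.0845) and telomerase (down to -0.0139). Named genes near 0 changed sign when 1 library was left out, with ranges of -0.531 to 0.0395 for PCYT1A, -0.736 to 0.0704 for AXIN2, -0.0317 to 0.412 for ATP5A1, -0.293 to 0.00263 for MT2A, -0.444 to 0.253 for BCL2L1, -0.724 to 0.00617 for UGT1A1, -0.062 to 1.77 for DDIT3, -0.466 to 0.149 for MCM2, -0.288 to 0.109 for VIL1, -0.0923 to 0.225 for DNAJB1, -0.21 to 0.306 for CCNB1, -0.154 to 0.0712 for CTSD and -0.41 to 0.332 for CHKA. CCNB1 gave -0.00668 with library size only, and CHKA gave 0.016 with DESeq2, 0.0161 with upper quartile scaling, 0.00755 with DESeq2 size factors and 0.207 with the replicate block. The cause of these changes was not tested.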

Other observations

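Genes outside the functional lists that passed an adjusted p of 0.05 were also described, chosen after their values were seen. NOTCH1, a receptor that keeps crypt cells from becoming goblet cells, had 37.5 ± 10.1 CPM in the controls and 8.16 ± 1.41 CPM with HME (log2 fold change -2.18, adjusted p = 0.0302). ALCAM, an adhesion protein of stem cells, fell from 253 ± 49.8 to 67.9 ± 16.4 CPM (-1.89, adjusted p = 0.0274), and LRP4 (-2.12) and ROBO1 (-1.94) were lower too. APP, the amyloid precursor protein, which ADAM10 cleaves, fell from 354 ± 23.3 to 113 ± 10.0 CPM (-1.66 ± 0.19, adjusted p = 0.0134). TM9SF2, a protein of the Golgi and endosome, fell from 455 ± 157 to 121 ± 17.2 CPM (-1.92), and TM9SF3 (-1.14) and the sorting receptor SORT1 (-1.66) fell too. MLEC, an ER lectin that binds glucosylated glycans, fell from 314 ± 59.2 to 125 ± 29.2 CPM (-1.32, adjusted p = 0.0487). The lipid flippases ATP8A1 (-1.61) and ATP11A (-1.61) fell with TMEM30A (-1.13), the subunit that flippases need to leave the ER. NDST1 (-1.17) and HS2ST1 (-1.11), which modify heparan sulfate, and SLC16A1, a lactate transporter (-1.35), were lower as well.

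Among the genes that were higher, PADI1, which converts arginine residues to citrulline, had 24.4 ± 2.81 CPM in the controls and 93.6 ± 10.2 CPM with HME (1.93 ± 0.21, adjusted p = 0.0134). SGK2, a kinase that regulates ion channels, rose from 6.86 ± 1.71 to 27 ± 2.83 CPM (1.94, adjusted p = 0.0344). KRT8, a keratin of simple epithelia that is also among the colon epithelial markers, rose from 98.6 ± 20.4 to 240 ± 14.6 CPM (1.28, adjusted p = 0.0357). PCK2, the mitochondrial enzyme that makes phosphoenolpyruvate and is a known ATF4 target, rose from 32.3 ± 11 to 96.4 ± 7.66 CPM (1.56, adjusted p = 0.0392). NOS3, a nitric oxide synthase, and PHLDA2 rose by 1.15 and 1.21.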
